A study of Mus musculus with 20 samples.

Results

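The *Lbx1* TAD was taken as the interval chr19:45290001-45615000 (mm9), which spans 325 kb and 65 bins of 5 kb. Its contacts were all pairs of bins with both bins in that interval, 2145 of the 77028 bin pairs of the captured region (chr19:44440001-46400000). The 2016 pairs at least 10 kb apart were used for the contact values of the TAD and its parts that follow. Capture Hi-C, which crosslinks chromatin, cuts it with DpnII, religates it and enriches the ligation products of a chosen region, was done on whole fore- and hindlimb buds of E11.5 mouse embryos, so every map mixes the cell types of the limb bud. Bins of the TAD held between 5 and 20 DpnII sites in mm9, with a median of 11.

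The samples were wild-type limb buds labelled c57bl6.J, and limb buds with homozygous *Dup*, *Inv1* or *Inv2* or heterozygous *Dup* or *Inv1*, all labelled G4 ESC, a hybrid embryonic stem cell line of 129 and C57BL/6 origin from which the mutants were made by CRISPR/Cas9. *Dup* is a tandem duplication, and *Inv1* and *Inv2* are inversions. The wild-type and the 3 homozygous genotypes had 3 biological replicates and 1 technical replicate each. There were 3 biological replicates of heterozygous *Inv1*. Heterozygous *Dup* was 1 library, whose genotype label names a heterozygous inversion and which was grouped by its title. All libraries of a genotype were merged by the authors into 1 map, so each genotype is 1 sample, no difference below has a test or a p-value, and genotype and strain background cannot be told apart. Brackets give 95% intervals that cover counting error only. The 6 maps held between 3350758 read pairs (heterozygous *Dup*) and 13101700 (homozygous *Dup*), with 7867931 in the wild-type. Inside the TAD the median bin pair held 210 read pairs in the wild-type, 621 in homozygous *Dup*, 310 in *Inv1*, 300.5 in *Inv2*, 127 in heterozygous *Dup* and 228.5 in heterozygous *Inv1*, and no bin pair was at 0.

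TADs are stretches of a chromosome whose parts contact each other more often than they contact the neighbouring stretches, and in mammals many of their ends carry binding sites of CTCF, the protein at which loop extrusion by cohesin is thought to stop. Enhancers act mostly on promoters of their own TAD. The *Lbx1* TAD holds *Lbx1* (chr19:45307178-45310301, minus strand), whose product is a homeobox transcription factor needed by the muscle precursors that migrate into the limb, and *Btrc* (chr19:45438224-45607831, plus strand), which encodes an F-box protein that recognises the substrates of a ubiquitin ligase. The annotation places another protein-coding gene, *Gm6807* (chr19:45524798-45525685, minus strand), inside *Btrc*.

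The breakpoints fix how the TAD was divided, and the reference sequence around each is shown because each rearrangement is defined by it. Every sequence is the mm9 plus strand, 5′ to 3′, with the guide's target and its PAM in capitals. The 2 breakpoints inside the TAD were the centromeric ends of *Inv2* (chr19:45332247-45332319) and *Inv1* (chr19:45611009-45611081), whose guides match the plus strand, so that the PAM ends the capitals:
*Inv2* centromeric breakpoint: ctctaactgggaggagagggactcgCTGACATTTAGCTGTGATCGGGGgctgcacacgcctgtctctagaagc
*Inv1* centromeric breakpoint: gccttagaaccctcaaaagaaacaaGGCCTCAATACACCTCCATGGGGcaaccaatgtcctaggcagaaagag
The duplication began centromeric of the TAD (chr19:45251603-45251675) and ended telomeric of it (chr19:45792695-45792767), at the guide site that is also the telomeric end of *Inv2*. Both guides match the minus strand, so that the capitals begin with the complement of the PAM:
*Dup* centromeric breakpoint: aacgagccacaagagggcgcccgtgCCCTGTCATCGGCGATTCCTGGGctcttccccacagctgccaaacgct
*Dup* and *Inv2* telomeric breakpoint: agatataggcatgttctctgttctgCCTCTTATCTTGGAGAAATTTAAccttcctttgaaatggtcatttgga
The predicted cut of the *Inv2* guide lies after position 45332288, between *Lbx1* and *Btrc*, and that of the *Inv1* guide after 45611050, in the last bin of the TAD and telomeric of *Btrc*. In *Inv1* the TAD therefore keeps its order up to the last bin, and the sequence beyond that cut is inverted up to 45734101. In *Inv2* the telomeric part of the TAD is inverted, which puts most of it farther from *Lbx1* and its telomeric end nearer. In *Dup* the whole TAD lies inside a tandem copy of 541.092 kb.

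The TAD was split at the *Inv2* breakpoint into a centromeric part of 40 kb with *Lbx1* (chr19:45290001-45330000, 8 bins) and a telomeric part of 280 kb (chr19:45335001-45615000, 56 bins). The telomeric part was split again into a middle part of 100 kb between the breakpoint and *Btrc* (chr19:45335001-45435000, 20 bins) and the *Btrc* gene body of 175 kb (chr19:45435001-45610000, 35 bins). The bin that holds the *Inv2* breakpoint belonged to no part, and the bin of the *Inv1* breakpoint only to the telomeric part. For each bin pair, observed over expected contact is its signal divided by the mean of all bin pairs of the same map at the same distance.

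In the wild-type map the TAD was not uniformly dense. Its mean observed over expected contact was 1.23 (1.225 to 1.234), against 0.732 and 1.16 in control squares of the same length on the centromeric side (chr19:44900001-45225000) and on the telomeric side (chr19:45820001-46145000) that no rearrangement reaches. Contact within the centromeric part stood at 0.711 (0.699 to 0.724) and within the middle part at 0.919 (0.912 to 0.927), both below the mean of their distances. The *Btrc* gene body was at 1.01 (1.00 to 1.01). The high values of the TAD thus lay between its parts and not within them. The centromeric part contacted the *Btrc* gene body at 1.80 (1.78 to 1.81) and the middle part only at 0.895 (0.885 to 0.904), although the middle part is nearer. The middle part and the gene body contacted each other at 1.31 (1.30 to 1.32).

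Over 91 blocks of 25 kb by 25 kb, wild-type observed over expected contact ran from 0.642, for the first 25 kb with itself, to 2.63, for the first 25 kb with the last 25 kb. The first 25 kb, which holds *Lbx1*, was at or above 2.03 with each of the 5 blocks from 45490001 to the end of the TAD, that is with the telomeric part of *Btrc* and its flank. The 35 kb segments of the telomeric part, numbered 1 to 8 from the breakpoint outwards, showed a similar rise. Their contact with the centromeric part was 0.881, 0.969, 0.873 and 1.02 in segments 1 to 4 and 1.70, 2.25, 2.03 and 2.27 in segments 5 to 8. The rise began inside *Btrc*, between segment 4, at 1.02 (0.993 to 1.04), and segment 5, at 1.70 (1.67 to 1.74). Their shared limit at 45475001 was set by the grid of segments and locates no step. The segments, blocks and distance classes are descriptions whose limits were chosen with the maps known.

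**Figure D1:**
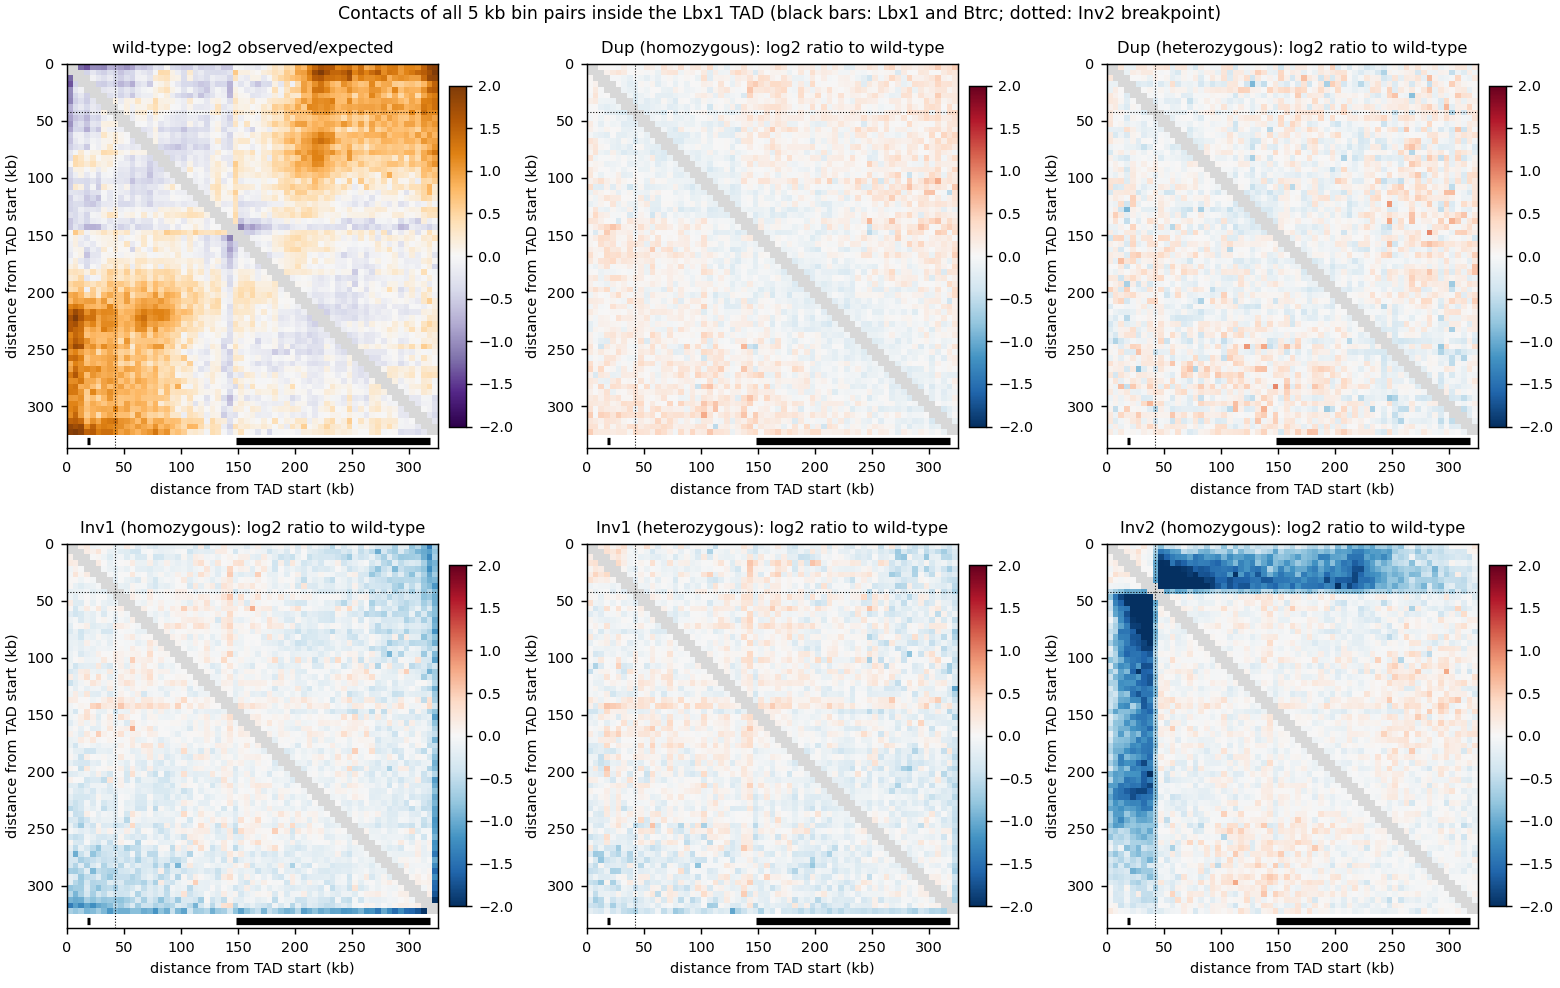
Observed over expected contact of the wild-type map (log2 colour scale) and the ratio of each mutant map to the wild-type (log2 colour scale) for the bin pairs of the *Lbx1* TAD, with both axes in kb from the start of the TAD. Bin pairs under 10 kb apart are grey, black bars mark *Lbx1* and *Btrc*, and dotted lines mark the *Inv2* breakpoint, at which the *Inv2* map changes from a ratio of 0.459 across the breakpoint to 0.988 within the telomeric part.

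Contact inside the TAD decayed slowly with distance. On log-log axes the slope over the 63 distances from 10 to 320 kb was -0.50 in the wild-type TAD, against -0.87 over all bin pairs of the map and -1.10 and -0.75 in the control squares. Observed over expected contact accordingly went up with every distance class, from 0.945 at 10 to 45 kb, 1.02 at 50 to 95 kb and 1.14 at 100 to 145 kb to 1.37 at 150 to 195 kb, 1.83 at 200 to 245 kb, 2.01 at 250 to 295 kb and 3.07 (2.97 to 3.17) at 300 to 320 kb. The last class holds 15 bin pairs that join the 2 ends of the TAD. The limits of the TAD were chosen with earlier results of these data known, so its high value is no independent result.

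The slopes of the mutant TADs were -0.43 in homozygous *Dup*, -0.41 in heterozygous *Dup*, -0.52 in heterozygous *Inv1*, -0.54 in *Inv2* and -0.63 in homozygous *Inv1*. Homozygous *Inv1* had the steepest decay of the 6 maps over this range, but not over distances up to 50% of the TAD length, where its slope was -0.73, against -0.74 in the wild-type and -0.75 in *Inv2*, while its slope over the whole map, -0.83, was within the range of the other maps (-0.80 to -0.87).

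For the ratio of a mutant to the wild-type, each mutant map was scaled to the wild-type at each distance on bin pairs outside the rearranged interval. These had both bins on the same side of the interval of that allele. They held all bins of the TAD but the last for *Inv1*, the centromeric part for *Inv2* and no bin of the TAD for *Dup*. The scaling of *Inv1* thus rested partly on the TAD itself, and the alleles do not share the same reference. The mean contact of a rectangle of bin pairs was then divided by the wild-type mean. By this measure the whole TAD stood at 0.982 (0.979 to 0.985) in homozygous *Dup*, 0.982 (0.978 to 0.987) in heterozygous *Dup*, 0.962 (0.959 to 0.966) in heterozygous *Inv1*, 0.934 (0.931 to 0.938) in homozygous *Inv1* and 0.898 (0.894 to 0.901) in *Inv2*. The control squares ran from 0.949 to 1.03 over the 5 mutants. Both squares lie among the bin pairs used for the scaling, so their nearness to 1 was partly fixed beforehand. They are no independent standard for the TAD. Beside its own control squares, the TAD was below both in homozygous *Dup* (1.01 and 1.02), heterozygous *Inv1* (0.983 and 1.03), homozygous *Inv1* (0.991 and 1.02) and *Inv2* (0.978 and 1.02), and between them in heterozygous *Dup* (0.949 and 1.03). By the median of single bin-pair ratios, the TAD of homozygous *Dup* stood at 1.018, between its control squares at 1.010 and 1.025. The ratios of homozygous *Inv1* and *Inv2* were also below every control square of the 5 mutants.

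*Inv2* had the lowest mean ratio over the TAD (by the median of single bin-pair ratios homozygous *Inv1* was lower, at 0.931 against 0.959), and its loss lay along the breakpoint. Across the breakpoint, over the 448 bin pairs of the centromeric with the telomeric part, 100243 read pairs in the wild-type and 78309 in the larger *Inv2* map gave a ratio of 0.459 (0.455 to 0.464). Observed over expected contact there was 1.498 (1.487 to 1.510) in the wild-type and 0.865 (0.858 to 0.872) in *Inv2*. The centromeric part kept 0.330 (0.325 to 0.336) of its wild-type contact with the middle part and 0.553 (0.546 to 0.561) of that with the *Btrc* gene body. Contacts on either side of the breakpoint were close to wild-type, at 0.988 (0.984 to 0.992) within the telomeric part and 1.04 (1.02 to 1.07) within the centromeric part.

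The loss in *Inv2* had the same direction in every bin of the centromeric part. The ratios of these 8 bins with the whole TAD ran from 0.448, in the bin next to the breakpoint, to 0.783, in the first bin of the TAD, with a median of 0.622. The medians were 0.921 for the 20 bins of the middle part and 0.957 for the 35 bins of the gene body. The start bins of *Lbx1* and *Btrc*, 125 kb apart, shared 117 read pairs in the wild-type, 452 in homozygous *Dup*, 102 in heterozygous *Dup*, 256 in homozygous *Inv1*, 192 in heterozygous *Inv1* and 131 in *Inv2*. As observed over expected contact these were 1.08, 1.24, 1.20, 1.00, 1.10 and 0.586 in that order. *Inv2* was the low map, at 0.520 (0.406 to 0.668) of the wild-type, and the interval of each other mutant's ratio included 1. In the square of 3 by 3 bins around this pair, which holds more read pairs, the ratio was 0.477 (0.432 to 0.526) in *Inv2*, and the intervals of homozygous *Dup* at 1.22 (1.13 to 1.32), heterozygous *Inv1* at 1.14 (1.05 to 1.25) and homozygous *Inv1* at 1.09 (1.01 to 1.188) lay above 1.

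In the inverted order the segments of the telomeric part lie at other distances from *Lbx1*. Across the breakpoint the mean distance of a bin pair was 165 kb in the wild-type order and 340.0 kb in the *Inv2* order. The wild-type decay, read at those distances, gave an expected ratio of 0.379, and the observed one was 0.459. In simulated maps, balancing made a loss set across this breakpoint smaller, and its part in this gap was not tested. Read pairs with no factor per bin gave 0.473. Both the expected and the observed ratio were higher towards segment 8 than at segment 1, the observed one less steeply and with a dip at segment 5, at 0.413 (0.401 to 0.426). Segment 1, next to the breakpoint in the wild-type order and farthest in the inverted one, stood at 0.251 (0.246 to 0.257), where distance alone gave 0.0939. Segment 7 is at 252.5 kb in both orders, so that distance alone gave 1.00, and it stood at 0.676 (0.656 to 0.696). Segment 8, nearer in the inverted order, was expected at 1.31 and stood at 0.843 (0.822 to 0.865). Relative to the contact expected from distance, the middle part went from 0.909 (0.900 to 0.918) in the wild-type to 1.88 (1.86 to 1.91) in *Inv2*, and the *Btrc* gene body from 1.69 (1.67 to 1.70) to 1.31 (1.30 to 1.32). The segments of the gene body that were enriched in the wild-type were thus less enriched in *Inv2*, and the middle part more.

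**Figure D2:**
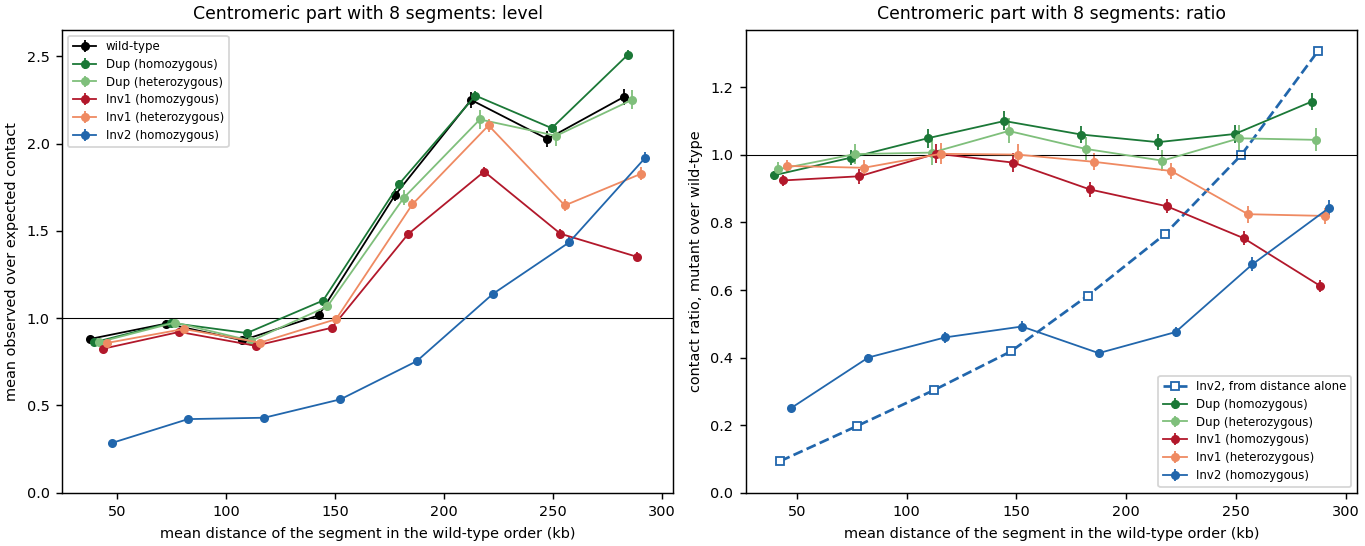
Contact of the centromeric part with 8 segments of 35 kb, as mean observed over expected contact (left) and as ratio to the wild-type (right), against the mean distance of each segment in the wild-type order (kb, points of different maps shifted sideways). Bars are 95% counting intervals, and open squares give the *Inv2* ratio expected from distance alone, which crosses the observed *Inv2* ratio between segments 4 and 5.

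In homozygous *Inv1* the lower contact lay mainly at long range. Its ratio across the *Inv2* breakpoint, which is intact in this allele, was 0.877 (0.869 to 0.884), with 0.942 (0.931 to 0.954) for the centromeric with the middle part and 0.831 (0.821 to 0.841) for the centromeric part with the *Btrc* gene body. The centromeric part itself was at 1.01 (0.991 to 1.03) and the middle part at 1.02 (1.01 to 1.03). Along the segments the ratio went up from 0.924 (0.909 to 0.939) in segment 1 to 1.00 (0.975 to 1.03) in segment 3, and from there down to 0.753 (0.732 to 0.776) in segment 7 and 0.612 (0.595 to 0.629) in segment 8. By distance it went down in every class, from 0.967 (0.962 to 0.972) at 10 to 45 kb over 0.896 (0.885 to 0.906) at 150 to 195 kb to 0.689 (0.675 to 0.704) at 250 to 295 kb and 0.532 (0.508 to 0.557) at 300 to 320 kb. In *Inv2* the ratio was 0.921 at 10 to 45 kb and lowest at 200 to 245 kb, at 0.746 (0.735 to 0.757), and at the longest distances it was above that of *Inv1*, with 0.793 (0.777 to 0.809) at 250 to 295 kb and 0.947 (0.909 to 0.985) at 300 to 320 kb. The control squares of *Inv1* were between 0.974 and 1.10 up to 195 kb, at 1.09 and 1.15 at 250 to 295 kb and at 1.20 and 1.22 at 300 to 320 kb. Squares and TAD both enter the scaling of *Inv1*, so these values depend on each other. The control squares of *Inv2* were at 0.985 and 1.01 at 10 to 45 kb and at 0.970 and 1.14 at 200 to 245 kb. They were at 1.00 and 1.14 at 250 to 295 kb and at 1.04 and 1.14 at 300 to 320 kb.

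The last bin of the TAD, which the *Inv1* breakpoint cuts, had the lowest ratio of all bins with the TAD, at 0.475 (0.463 to 0.486). The bins of the gene body ran from 0.797 to 1.03. Without that bin the ratio at 250 to 295 kb was 0.707 (0.691 to 0.723) and at 300 to 320 kb, where 10 bin pairs were left, 0.495 (0.466 to 0.526). The lower long-range contact was therefore not confined to the cut bin.

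Heterozygous *Inv1* lay between the wild-type and homozygous *Inv1* where the homozygote was farthest from the wild-type. Across the *Inv2* breakpoint it stood at 0.943 (0.935 to 0.952), where the midpoint of wild-type and homozygote is 0.938. For the centromeric part with the *Btrc* gene body it stood at 0.923 (0.911 to 0.934), with a midpoint of 0.915. Its last bin was at 0.730 and its contact at 300 to 320 kb at 0.789 (0.755 to 0.826). Within the centromeric part and within the *Btrc* gene body it lay outside the range from the wild-type to the homozygote, as it did in both control squares, at 1.03 (homozygote 1.02) and 0.983 (0.991). Within the centromeric part it was at 1.10 (1.08 to 1.12), against 1.01 in the homozygote, but at 1.00 with 1 scaling factor for all distances. Within the *Btrc* gene body it was at 0.940 (0.934 to 0.946), against 0.951 (0.946 to 0.957). No replicate spread is at hand to set against these departures.

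In homozygous *Dup*, with the map balanced to equal bin totals, the TAD had less contact at short range and more at long range than the wild-type. The ratio was 0.924 (0.920 to 0.929) at 10 to 45 kb, 0.999 (0.992 to 1.01) at 50 to 95 kb, 1.05 (1.04 to 1.06) at 100 to 145 kb, 1.13 (1.11 to 1.15) at 250 to 295 kb and 1.18 (1.14 to 1.22) at 300 to 320 kb. In the control squares the homozygous *Dup* ratio was between 0.929 and 1.05 over all classes. The *Btrc* gene body was at 0.947 (0.942 to 0.952) and the middle part at 0.932 (0.924 to 0.940), and the centromeric part with the gene body at 1.08 (1.06 to 1.09). Contact across the *Inv2* breakpoint stood at 1.03 (1.02 to 1.04) in homozygous *Dup* and at 1.01 (0.995 to 1.02) in heterozygous *Dup*. The heterozygous map had the same order of parts with smaller differences, with 0.944 (0.937 to 0.950) at 10 to 45 kb and 1.01 (0.963 to 1.07) at 300 to 320 kb, and its control squares ran from 0.902 to 1.21.

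The deposited *Dup* maps keep the higher copy number through their normalization. It set the totals of bins in the TAD to 2 times (homozygous) and 1.5 times (heterozygous) those of bins outside the duplication. Measured on these maps, contact inside the TAD was 2.17 (2.16 to 2.18) times the wild-type in homozygous and 1.58 (1.57 to 1.59) times in heterozygous *Dup*. Bins of the TAD on 1 copy also meet those of the other copy, 541.092 kb away, and adding these contacts by the wild-type decay gave 2.23 and 1.62. Because the bin totals were set by the normalization, the nearness of these values was largely fixed beforehand, and no conclusion is drawn from it. Read pairs with no factor per bin gave 2.21 and 1.70. In homozygous *Dup* the measured ratio by distance went from 2.04 at 10 to 45 kb, where 2.10 was expected, to 2.52 at 250 to 295 kb, where 2.61 was expected, and 2.65 (2.56 to 2.75) at 300 to 320 kb, where 2.48 was expected. Reads of the 2 copies cannot be told apart.

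**Figure D3:**
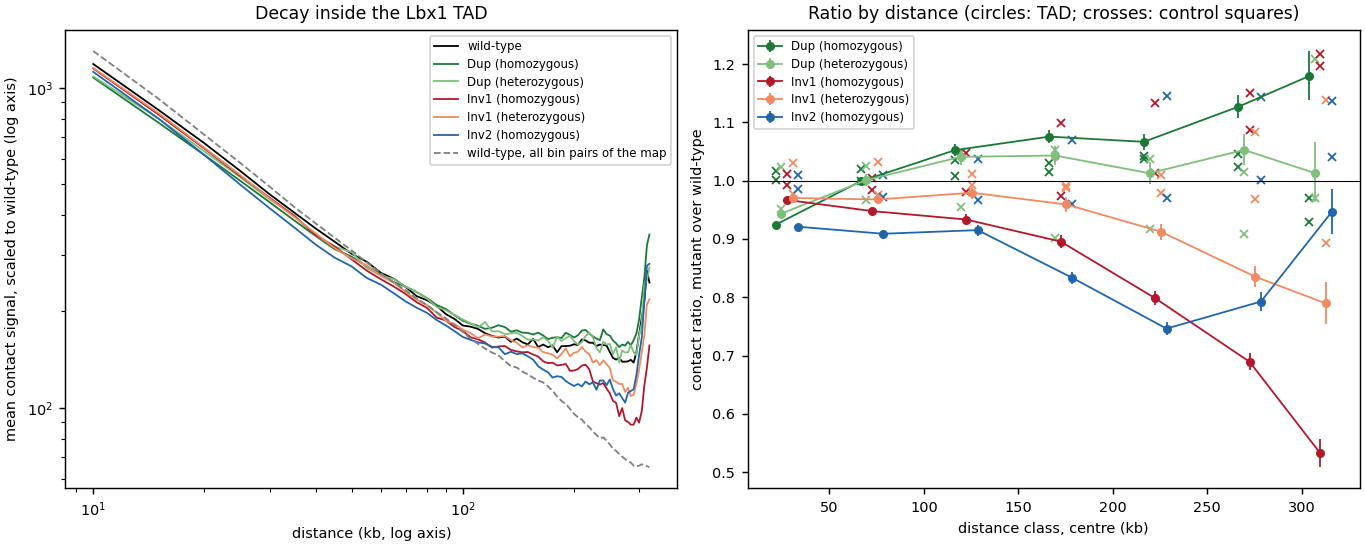
Mean contact signal of the *Lbx1* TAD, scaled to the wild-type, against distance in kb (left, both axes log), and the ratio of each mutant to the wild-type in 7 distance classes (right, circles with 95% counting intervals) beside the same ratio in the 2 control squares (crosses). The homozygous *Inv1* ratio goes down to 0.532 at 300 to 320 kb, and that of homozygous *Dup* goes up to 1.18.

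Steps inside the TAD were located with an insulation score, for which the contact of the 50 kb before a position with the 50 kb after it was averaged, divided by the mean of this value along the map and put on a log2 scale. The average included adjacent bins and, near the ends of the TAD, bins outside it. Low scores mark positions across which few contacts run. In the wild-type the lowest score of the TAD was -0.84 at 45295000, by its centromeric end, and farther than 50 kb from the ends there were only 3 shallow local minima, -0.21 at 45370000, -0.15 at 45440000 next to the start of *Btrc*, and -0.18 at 45515000 inside *Btrc*, with 95% counting intervals of ± 0.02. The *Inv2* breakpoint, at 45330000 on this grid, had a score of -0.14 (± 0.01) in the wild-type. With a window of 100 kb the lowest score farther than 50 kb from the ends moved to 45340000, at -0.13, the minimum inside *Btrc* was at -0.04, and that by the start of *Btrc* was above 0, at 0.23.

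*Inv2* was the only map with a deep minimum away from the ends of the TAD, -1.58 (± 0.02) at 45330000, while the 4 other mutants had between -0.23 and -0.18 there. The *Inv2* score was lower than that of the ends of the TAD in the wild-type, -0.84 at 45295000 and -0.46 at 45610000, although in *Inv2* this position joins pieces that are no longer neighbours. The minima at 45440000 and 45515000 were present in *Inv2*, at -0.11 and -0.12, and that at 45370000 was not, since the score climbed there from the breakpoint. In homozygous *Inv1* the lowest score of the TAD was at its telomeric end, -0.99 (± 0.02) at 45610000, against -0.67 in heterozygous *Inv1* and between -0.46 and -0.40 in the other 4 maps. The *Inv1* breakpoint lies in the bin after this position, so nearly all of the 50 kb after it is inverted in that allele. There too the reference order joins pieces that are no longer neighbours, and the score does not measure the strength of a TAD end. Both *Dup* maps kept the 3 shallow minima, within 10 kb of their wild-type positions.

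**Figure D4:**
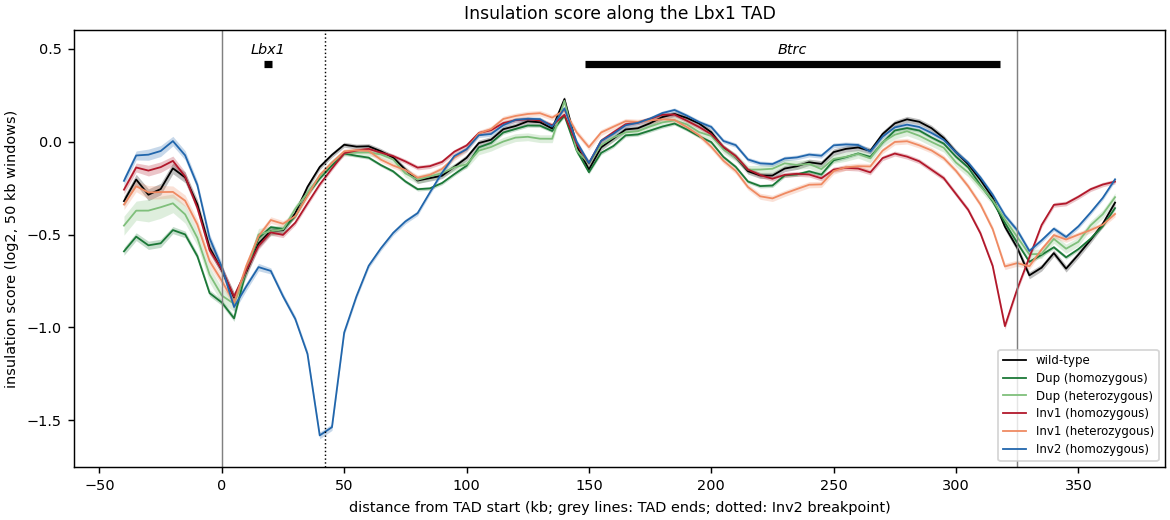
Insulation score (log2, windows of 50 kb, shading for the 95% counting interval) against distance from the start of the *Lbx1* TAD in kb, for the 6 maps. The *Inv2* curve dips to -1.58 at its breakpoint (dotted) and the homozygous *Inv1* curve to -0.99 by its own, at the telomeric end.

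The 10 strongest wild-type bin pairs, at least 25 kb apart and at most 1 per neighbourhood of 3 bins, were followed in the other maps. They were chosen for their wild-type values, which therefore lean upward. The strongest pair joined the bin at 45295001, centromeric of *Lbx1*, with the last bin at 45610001, near both ends of the TAD. Its observed over expected contact was 4.59 (4.17 to 5.06) in the wild-type on 406 read pairs, 5.04 in homozygous *Dup*, 4.10 in heterozygous *Dup*, 3.71 in heterozygous *Inv1* and 4.65 in *Inv2*, and the low map was homozygous *Inv1* with 2.66 (2.42 to 2.92). The next pair joined the same centromeric bin with the bin at 45510001 inside *Btrc*, at 4.07 (3.75 to 4.41) in the wild-type, 3.82 in homozygous *Dup*, 3.27 in heterozygous *Dup*, 3.06 in homozygous *Inv1* and 3.56 in heterozygous *Inv1*. Here *Inv2* was low, at 1.64 (1.47 to 1.83).

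Of the 10 pairs, 5 shared the bin at 45295001, and 7 joined a bin centromeric of the *Inv2* breakpoint bin with one telomeric of it. The pair of the bins at 45355001 and 45510001, both in the telomeric part, had 2.62 (2.37 to 2.89) in the wild-type and 2.46 (2.27 to 2.67) in *Inv2*. The pair across the breakpoint at 45320001 and 45520001 went from 2.34 (2.10 to 2.61) to 0.919 (0.804 to 1.05), the lowest ratio of the 10 in *Inv2*, 0.371 (0.312 to 0.440). Over the 10 pairs the median ratio to the wild-type was 0.964 in homozygous *Dup*, 0.855 in heterozygous *Dup*, 0.767 in heterozygous *Inv1*, 0.708 in *Inv2* and 0.620 in homozygous *Inv1*. All 10 lay below 1 in homozygous *Inv1*, 9 in heterozygous *Inv1* and in *Inv2*, 8 in heterozygous *Dup* and 7 in homozygous *Dup*. The choice of the pairs by high wild-type values lowers these ratios in every mutant. The lowest ratios of homozygous *Inv1* were 0.439 (0.359 to 0.538) for 45365001 with the last bin and 0.452 (0.361 to 0.565) for 45325001 with the last bin.

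**Figure D5:**
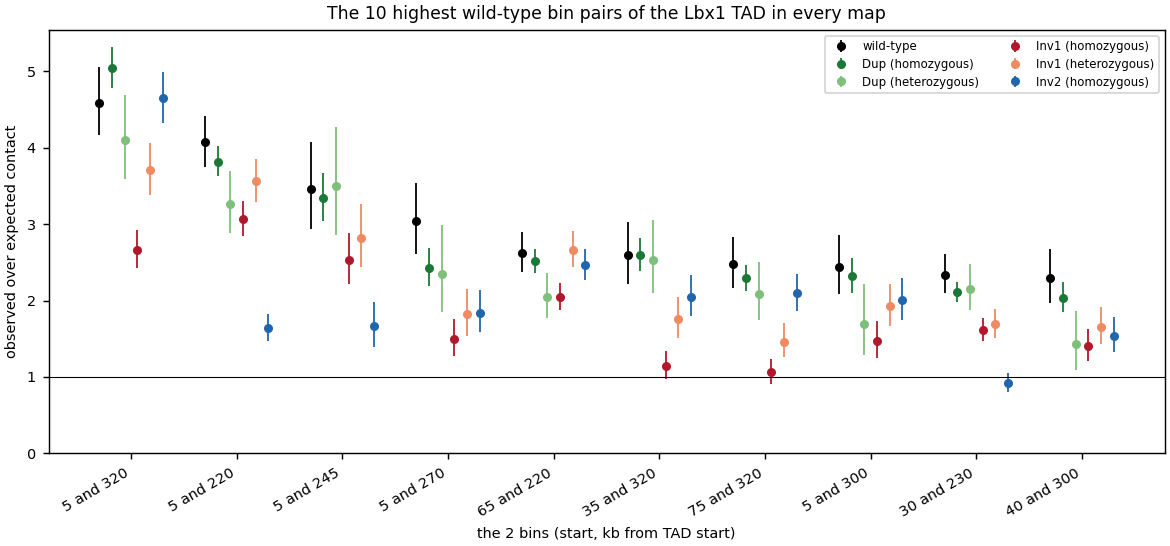
Observed over expected contact of the 10 strongest wild-type bin pairs of the *Lbx1* TAD in the 6 maps, with 95% counting intervals. Each pair is named by the starts of its bins in kb from the start of the TAD. In homozygous *Inv1* all 10 lie below the wild-type value, and in *Inv2* the pair of both TAD ends, at 4.65, does not. The pairs were chosen for high wild-type values, so those of the other maps lean low beside them.

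Single bin pairs past a fold of 1.5 were also counted. Of the 2016 bin pairs, 378 (18.75%) were at least 1.5-fold lower in *Inv2* and 1 was higher. Over all bin pairs of the map at the same range of distances, the TAD and the rearranged interval included, 7.57% were lower and 2.25% higher. Across the breakpoint 333 of 448, or 74.3%, were lower. In homozygous *Inv1*, 121 (6.00%) were lower and 1 (0.05%) higher, against 4.03% and 6.83% over the map. The 63 bin pairs with the last bin gave 56 of the 121, and the 448 across the *Inv2* breakpoint, which share some pairs with these, gave 47. Much of this count thus came from the cut bin, and it does not show a loss spread over the TAD.

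The counts of the other mutants were near or below their backgrounds. Heterozygous *Inv1* had 29 lower, or 1.44%, and 0 higher, against 2.1% and 4.15% over the map, and 10 of the 29 involved the last bin. Homozygous *Dup* had 2 higher and 0 lower, against 2.43% and 1.08%. Heterozygous *Dup*, the shallowest map, had 12 higher and 12 lower, against 4.77% and 3.93%. The median wild-type bin pair held 210 read pairs in the TAD and 117 and 155 in the control squares, and the part of depth in these shares was not tested.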

How the data were processed

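The authors mapped reads with HiCUP and Bowtie2 2.4.2 to mm9, kept confidently mapped read pairs, merged all libraries of a genotype and binned them at 5 kb. They balanced the inversion and wild-type maps by the Knight-Ruiz method (Juicer 1.19.02) and the *Dup* maps by LOIC, which keeps copy number (4 copies against 2 in the homozygote), and the deposited values are this contact signal. For heterozygous *Dup* the copy number is not stated in the paper or labels, but the bin totals of its map in the TAD were 1.5 times those outside the duplication. A further 3 maps hold the authors' subtractions and were not used. The merging, and the mapping to the reference order, are fixed in all values.

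From there Python 3.11.15, numpy 2.4.6 and matplotlib 3.10.9 were used. Dividing out the factor of each bin gave whole read pairs for 100% of values (within 0.01), which set the 95% counting intervals (1.96 standard errors of the log ratio, scaling factors taken as exact). *Dup* maps were balanced to equal bin totals. Mutant maps were scaled to the wild-type at each distance on bin pairs outside the rearranged interval, 10 kb or more apart. For *Inv1* these include all bins of the TAD but the last. Single bin pairs were counted at a fold of 1.5 where both maps together held 50 read pairs. With 1 merged map per genotype no test was run. The calculation was tested on simulated maps. A loss set across the *Inv2* breakpoint was recovered closely on read pairs but came out smaller than set after balancing.

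Named items were all protein-coding genes of the TAD with the bins of their starts, the 10 bin pairs highest in the wild-type and the lowest insulation scores. The limits of the TAD, its parts and these lists were chosen with earlier results of these data known. Alternatives were 1 scaling factor for all distances, a larger minimum distance, TAD ends moved inward, read pairs without balancing, the median of single ratios, the deposited *Dup* maps, a fold of 2 and a window of 100 kb.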

Additional observations from a re-analysis of the deposited data

How the results depend on the processing

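No paired analysis was possible because the replicates of each genotype were merged before deposit, and no leave-one-replicate value was had for the same reason. Of 211 alternative values, 60 moved by less than the counting interval (for counts, by less than 1.5 times), 133 moved by more, and 18 whose interval excluded 1 changed side of 1. These 18 include *Dup* ratios from the deposited maps and from read pairs with no factor per bin. Such values keep the extra copies and so measure another quantity. The TAD ratios of both *Dup* maps also changed side with a minimum distance of 5 bins and by the median of single bin-pair ratios. The losses of *Inv2* across its breakpoint (0.459) and of homozygous *Inv1* over the TAD (0.934) kept their direction under every alternative run, and the TAD-wide ratios of both *Dup* maps did not.

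With 1 scaling factor for all distances, the TAD ratio was 0.986 (homozygous *Dup*), 0.971 (heterozygous *Dup*), 0.917 (*Inv1*), 0.954 (heterozygous *Inv1*) and 0.890 (*Inv2*), and the ratio across the breakpoint 1.02, 1.04 and 0.976 in homozygous *Dup*, heterozygous *Dup* and heterozygous *Inv1*. With a minimum distance of 5 bins, the TAD ratios, in the same order, were 1.01, 1.00, 0.921, 0.958 and 0.882, those across the breakpoint 1.04 (homozygous *Dup*) and 0.482 (*Inv2*), those within the telomeric part 1.00 in both *Dup* maps, and that within the centromeric part of *Inv2* 0.995. With both ends moved inward by 2 bins, the TAD ratio was 0.975 (homozygous *Dup*), 0.950 (*Inv1*), 0.970 (heterozygous *Inv1*) and 0.902 (*Inv2*), and across the breakpoint 1.02, 0.902, 0.961 and 0.387.

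With read pairs and no factor per bin, the TAD ratio was 2.21 (homozygous *Dup*), 1.70 (heterozygous *Dup*), 0.946 (*Inv1*) and 0.909 (*Inv2*), across the breakpoint 2.41, 1.76, 0.913 and 0.473, with 0.986 in heterozygous *Inv1*, and within the telomeric part 2.16 and 1.68 in the *Dup* maps and 1.01 in *Inv2*, whose observed over expected contact across the breakpoint was 1.01. The deposited *Dup* maps, which keep copy number, gave 2.17 and 1.58 for the TAD, 2.30 and 1.63 across the breakpoint, and 2.14 and 1.57 within the telomeric part. The median of single bin-pair ratios gave 1.02, 1.00, 0.931 and 0.959 for the TAD in homozygous *Dup*, heterozygous *Dup*, *Inv1* and *Inv2*, 1.05, 1.02, 0.894 and 0.490 across the breakpoint, and 1.01 within the telomeric part of homozygous *Dup*. At a fold of 2 the counts of bin pairs were 0 in both *Dup* maps, 29 in *Inv1*, 1 in heterozygous *Inv1* and 235 in *Inv2*. Contact of *Inv2* across the breakpoint over that expected from distance was 1.42 with bin pairs outside the TAD as reference. Slopes inside the TAD were -0.62 to -0.75 over distances up to 50% of the TAD length and -0.32 to -0.58 from 5 bins on, and the ratio of heterozygous *Inv1* within the centromeric part was 1.00 with 1 scaling factor and 1.04 from 5 bins on. The cause was not tested.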
